A study of Homo sapiens with 9 samples.

Results

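The genes described here are 30 genes of sterol and fatty acid synthesis, listed as driven by the sterol regulatory element-binding proteins (SREBPs). Whether SREBPs drive each of these genes in these cells was not tested. They were found by symbol among 58096 gene identifiers, through GENCODE release 29 on GRCh38. All 30 were present: 18 sterol enzymes, 5 SREBP regulators and sterol carriers, and 7 fatty acid enzymes. The measurements are counts of polyA+ RNA reads in ALL-SIL, a human T-cell acute lymphoblastic leukaemia line in which the transcription factor TLX1 is active. The 9 libraries came from cells electroporated with TLX1 siRNA1, TLX1 siRNA2 or NTC siRNA, with 3 libraries per label, numbered replicate 1 to 3. All groups share the cell line, the electroporation and RPMI medium with 20% fetal bovine serum. The labels do not say what NTC stands for, what the siRNA sequences are, when cells were harvested or what a replicate number marks, and ALL-SIL is 1 cell line.

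SREBPs are made as membrane proteins of the endoplasmic reticulum. When sterols are scarce, SCAP escorts them to the Golgi apparatus, where proteases release the part that enters the nucleus; when sterols are plentiful, INSIG proteins hold SCAP and SREBP back. SREBP-2, from SREBF2, mainly drives cholesterol synthesis, and the main liver form of SREBP-1, from SREBF1, mainly drives fatty acid synthesis. Dividing lymphoid cells use both products to build membranes.

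The libraries held 58305492 to 99524663 gene counts each. TLX1 itself went against the labels. It had 406, 457 and 387 CPM (counts per 1000000 gene counts) in the libraries labelled TLX1 siRNA1, 198, 231 and 179 CPM in those labelled TLX1 siRNA2, and 184, 167 and 183 CPM in the NTC libraries. Its log2 fold change was 1.22 ± 0.08 (SE) for siRNA1 against NTC (edgeR adjusted p = 2.05e-10) and 0.18 ± 0.08 for siRNA2 against NTC (edgeR adjusted p = 0.495). The siRNA labels are therefore used below as names of libraries, not as levels of TLX1. Of 11 T lineage markers 10 reached 1 CPM, among them CD3D at 459 to 616 CPM, and PTCRA did not. Of 10 markers of other cells 8 never reached 1 CPM, among them MS4A1, HBB and EPCAM at 1 count or none. The exceptions were PECAM1 at 94.4 to 128 CPM and CD79A at 8.62 to 20.4 CPM.

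Promoters are shown for SREBF2, LSS, HMGCS1, MVK and MVD, which differed between the 2 TLX1 siRNA labels in the test below, and for SREBF1. FADS2 and ELOVL6 also differed there, but their promoters are not printed. The capitals mark the SREBP site TCACNCCAC and the NF-Y box CCAAT, each on either strand, so CCAAT on the other strand reads ATTGG. NF-Y is a ubiquitous factor that binds next to SREBPs at many sterol genes. The sequences are RefSeq's (GRCh38.p14), 5′ to 3′ on the gene's strand, and end at the base before the transcription start. SREBF2, at chr22:41832855-41833104 on the plus strand, LSS, at chr21:46228775-46229024 on the minus strand, HMGCS1, at chr5:43313413-43313662 on the minus strand, MVK, at chr12:109573544-109573793 on the plus strand, MVD, at chr16:88663092-88663341 on the minus strand, and SREBF1, at chr17:17836987-17837236 on the minus strand, read as follows.
SREBF2: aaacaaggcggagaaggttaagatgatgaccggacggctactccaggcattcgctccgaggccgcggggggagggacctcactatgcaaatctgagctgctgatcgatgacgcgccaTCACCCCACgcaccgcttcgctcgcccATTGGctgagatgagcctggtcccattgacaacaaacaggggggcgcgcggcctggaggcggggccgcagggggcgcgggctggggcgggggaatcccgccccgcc
LSS: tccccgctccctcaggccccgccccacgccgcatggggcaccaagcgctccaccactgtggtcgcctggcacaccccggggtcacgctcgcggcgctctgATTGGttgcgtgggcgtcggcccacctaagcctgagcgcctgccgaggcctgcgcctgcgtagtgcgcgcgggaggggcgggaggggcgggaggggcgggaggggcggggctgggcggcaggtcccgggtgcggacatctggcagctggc
HMGCS1: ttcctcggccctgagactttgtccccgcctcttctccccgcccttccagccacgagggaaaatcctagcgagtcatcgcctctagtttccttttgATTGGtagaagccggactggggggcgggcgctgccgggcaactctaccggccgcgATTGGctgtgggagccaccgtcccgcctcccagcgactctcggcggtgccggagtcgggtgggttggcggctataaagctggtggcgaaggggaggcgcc
MVK: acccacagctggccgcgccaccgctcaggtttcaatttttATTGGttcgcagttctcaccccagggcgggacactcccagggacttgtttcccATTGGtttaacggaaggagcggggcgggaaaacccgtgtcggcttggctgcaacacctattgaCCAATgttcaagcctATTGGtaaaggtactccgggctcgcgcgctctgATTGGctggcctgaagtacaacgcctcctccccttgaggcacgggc
MVD: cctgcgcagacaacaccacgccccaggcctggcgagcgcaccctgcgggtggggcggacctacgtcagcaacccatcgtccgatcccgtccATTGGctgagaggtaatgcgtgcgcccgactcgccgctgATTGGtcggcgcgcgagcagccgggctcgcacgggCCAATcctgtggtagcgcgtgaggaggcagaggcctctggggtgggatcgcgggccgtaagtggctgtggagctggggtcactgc
SREBF1: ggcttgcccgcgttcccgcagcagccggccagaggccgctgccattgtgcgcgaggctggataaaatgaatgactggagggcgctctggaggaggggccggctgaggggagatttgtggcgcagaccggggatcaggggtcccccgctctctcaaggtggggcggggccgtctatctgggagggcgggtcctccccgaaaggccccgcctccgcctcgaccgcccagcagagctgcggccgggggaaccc

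RefSeq gave 35 promoter windows for 26 of the 30 members, each running from 250 bases before to 50 bases after a start. The exact SREBP site was in 1 of the 35 windows, that of SREBF2, where it begins 133 bases before the start. That site was held by 1.13% of all 35116 windows in RefSeq. CCAAT was in 24 of the 35 member windows (68.6%), from 20 genes, against 34.6% of all windows. The Sp1 box GGGCGG was in 31 member windows (88.6%), from 25 genes, against 45.0% of all windows. The E-box CACGTG was in 5 (14.3%), from 4 genes, against 7.26%. Overlapping windows of a gene were counted separately. All windows were not matched to those of the members in expression level or base content, and the part of these was not tested. Among the promoters printed, MVK held 5 CCAAT boxes, MVD 3, HMGCS1 2, LSS and SREBF2 1 each, and SREBF1 none. Another HMGCS1 window, not printed, held none. Nor did the FADS2 or ELOVL6 windows hold any before the start. With 1 mismatch allowed, the SREBP site was in 15 member windows (42.9%) and in 24.5% of all windows. These matches are letters in a window, not measured binding.

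Of the 30 members 29 passed the filter on low counts. CYP51A1, the lanosterol demethylase, did not, with 0 or 1 counts in every library and at most 0.0158 CPM. In the annotation used here its exons share 138 bases, 3.9% of exon length, with the antisense gene CYP51A1-AS1. Reads that fit more than 1 gene, 6.68% to 7.25% of the total, stand in a summary line outside the gene counts. Their part in the CYP51A1 value was not tested.

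The 29 counted members were among the better expressed genes. Their median level was 20.6 CPM per kb of merged exon length, against 2.55 for 18459 tested genes with a length, and 28 of the 29 lay above that median. The branch medians were close, at 20.6 CPM per kb for 17 sterol enzymes, 17.6 for the 5 regulators and carriers and 22.8 for the 7 fatty acid enzymes.

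FDFT1, squalene synthase, which makes the first committed sterol precursor, was at 114 CPM per kb (98.0 to 136 over the 9 libraries). SCD, the stearoyl-CoA desaturase, was at 107 CPM per kb (94.6 to 116), so the ranges of these 2 genes overlapped. ACLY, which makes cytosolic acetyl-CoA from citrate, followed at 67.4 CPM per kb (57.8 to 73.8), below every SCD value. At the low end stood MVK, mevalonate kinase, at 2.60 CPM per kb and HSD17B7, a sterol ketone reductase, at 2.14, whose ranges overlapped. The SREBF2 transcript was at 41.3 CPM per kb (36.2 to 46.9) and the SREBF1 transcript at 6.59 (4.90 to 8.21), with no overlap. Neighbours in the order overlapped in range except at 5 steps: SCD above ACLY, SCAP above FADS1, FADS1 above MVD, SREBF1 above SC5D and SC5D above TM7SF2.

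Per kb of the longest annotated transcript, 25 of the 29 levels moved by more than their SD over the libraries, FDFT1 to 224 and FADS2 to 49.5 CPM per kb. The order is thus that of 1 length definition. HSD17B7 has the pseudogene HSD17B7P2, which took up to 592 counts in a library. The exons of FDPS, HMGCS1 and IDI1 overlap antisense genes over 18.6% of exon length for FDPS, 15% for HMGCS1 and 14.8% for IDI1. The counts do not separate strands, so a gene and its antisense partner cannot be told apart there.

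**Figure D1:**
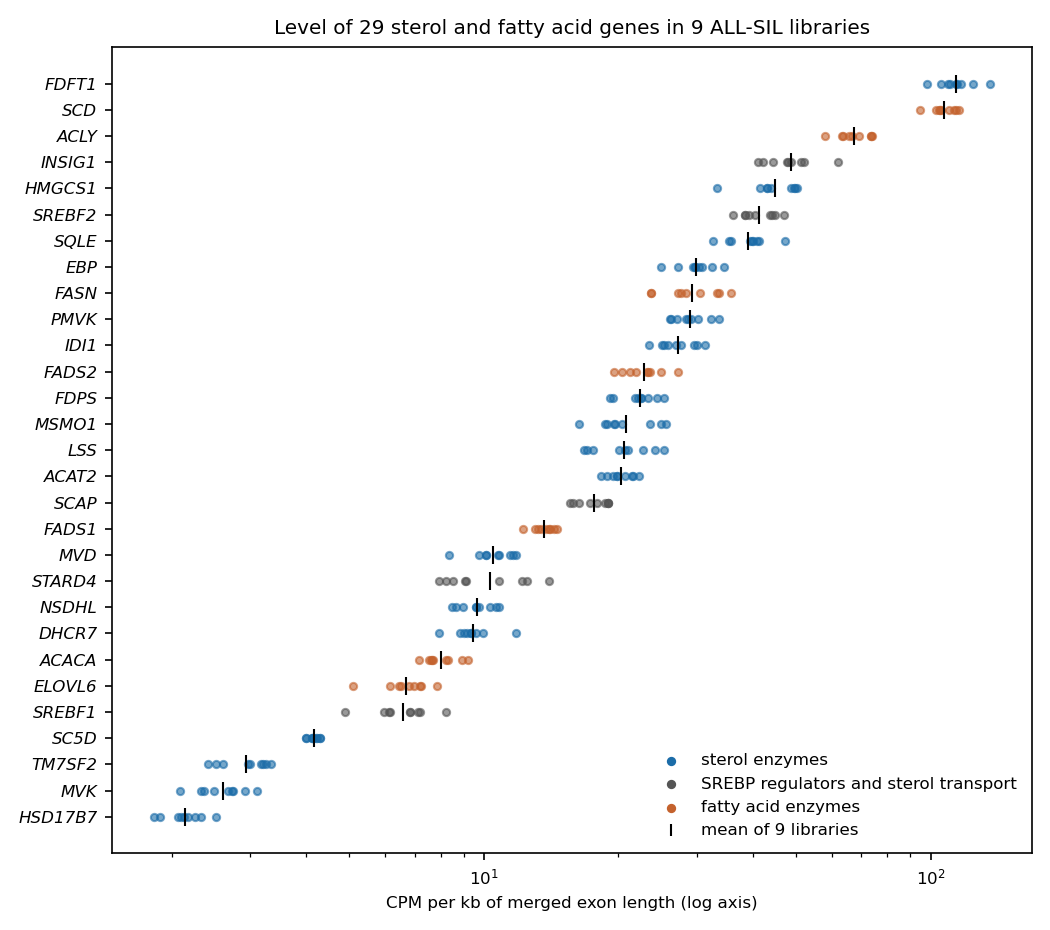
Level of the 29 counted members in CPM per kb of merged exon length (log axis), 1 point per library and a bar at the mean of the 9 libraries, coloured by branch. FDFT1 (114 CPM per kb) and SCD (107) stand at the top and HSD17B7 (2.14) at the bottom, and the 3 branches are mixed along the order.

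Summed over the 17 counted sterol enzymes, the libraries labelled siRNA1 had 1809, 1764 and 1741 CPM, those labelled siRNA2 had 1505, 1713 and 1636 CPM, and the NTC libraries had 1740, 1828 and 2009 CPM. Each siRNA2 library was below each library of the other 2 labels. The lowest value was that of siRNA2 replicate 1 and the highest that of NTC replicate 3.

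The 7 fatty acid enzymes summed to 1647, 1838 and 1707 CPM in the siRNA1 libraries, to 1594, 1865 and 1584 CPM in the siRNA2 libraries and to 1701, 1873 and 1891 CPM in the NTC libraries. These 3 groups overlapped, and replicate 2 held the highest sum under both TLX1 siRNA labels. The 5 regulators and carriers summed to 712, 699 and 779 CPM in the siRNA1 libraries, to 654, 680 and 692 CPM in the siRNA2 libraries and to 681, 716 and 817 CPM in the NTC libraries, with NTC replicate 3 again highest. In bulk RNA, fewer cells with a transcript and less of it per cell cannot be told apart.

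**Figure D2:**
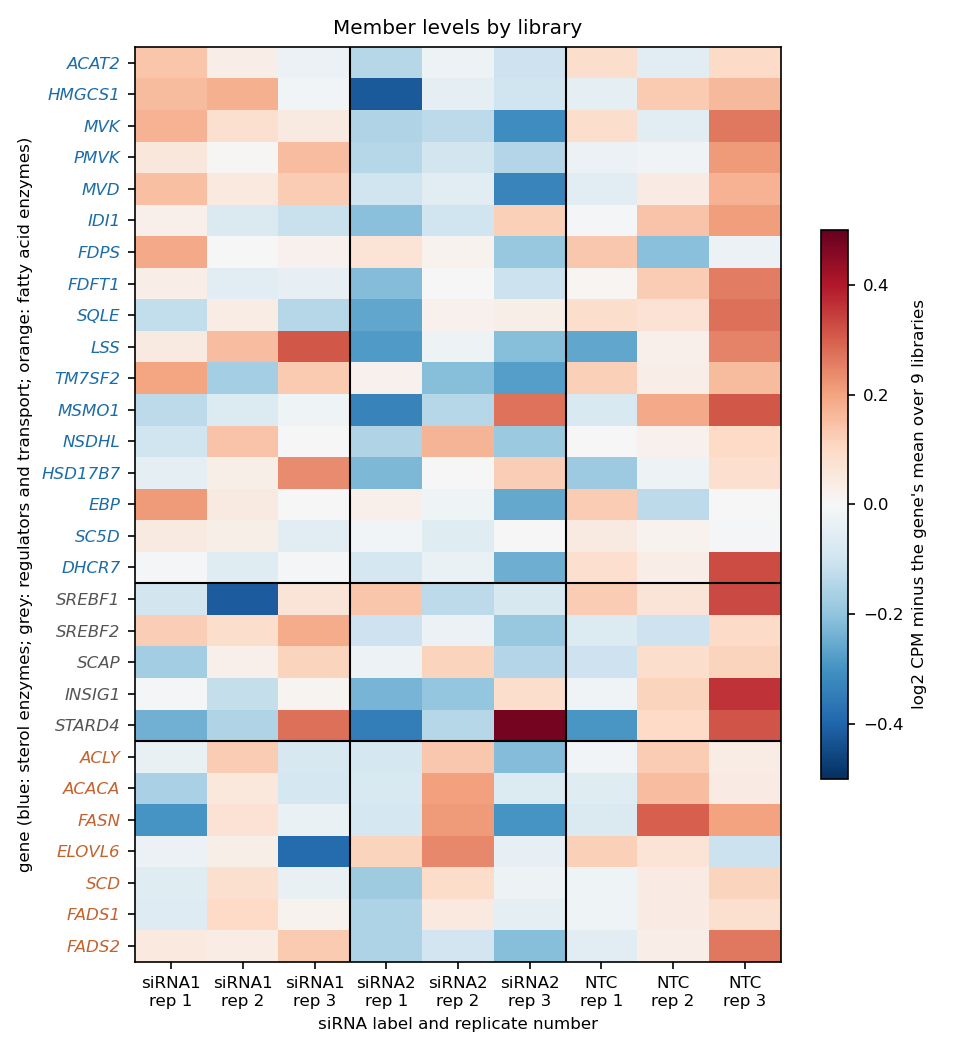
Log2 CPM of each member minus its mean over the 9 libraries, by siRNA label and replicate number (columns) and by branch (rows). Of the 17 sterol enzymes 13 or 14 are blue (below their mean) in each siRNA2 column and most are red in NTC replicate 3, while the fatty acid enzymes are mostly red in replicate 2.

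The libraries labelled siRNA2 were set against the NTC libraries, same-numbered libraries against each other. No member passed the threshold, an adjusted p under 0.05 in edgeR's quasi-likelihood test over all 18554 genes tested with the replicate number as a block. Over all genes 0.0862% were called higher and 0.0647% lower. The members' fold changes lay mostly below 0: 26 of 29 were negative, with a median log2 fold change of -0.17, against a median of -0.004 over all genes tested, of which 9506 were negative. At an unadjusted p under 0.05 stood 15 of the 29 members and 1553 of the 18554 genes. DESeq2 called 1 member lower, INSIG1, limma-voom called none, and edgeR with no filter beyond 1 count called HMGCS1, FDFT1 and INSIG1.

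Of the 17 sterol enzymes 15 were negative, with a median log2 fold change of -0.18 and a range of -0.29 to 0.01. In all 3 same-numbered pairs 11 of the 17 sterol enzymes, and 14 of the 29 members (48.3%), were lower under siRNA2, against 13.6% of all genes. The members' levels were also above the median of all genes, and the part of level in these shares was not tested.

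MVK had 15.1, 15.3 and 13.5 CPM in the siRNA2 libraries, against 17.8, 16.1 and 20.1 CPM in the NTC libraries. The 2 groups did not overlap. The difference was -0.29 ± 0.09 (SE) on the log2 scale, which did not pass (edgeR adjusted p = 0.201). HMGCS1, the cytosolic HMG-CoA synthase at the head of the pathway, had 156, 202 and 195 CPM in the siRNA2 libraries, against 202, 229 and 234 CPM in the NTC libraries. The groups met only at 202 CPM. The log2 fold change of HMGCS1 was -0.27 ± 0.08 (edgeR adjusted p = 0.177). DHCR7, the reductase that ends the pathway, had 36.8, 38.2 and 33.0 CPM in the siRNA2 libraries, against 41.5, 40.0 and 49 CPM in the NTC libraries. It did not overlap between the 2 labels, at a log2 fold change of -0.27 ± 0.08 (edgeR adjusted p = 0.201).

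The other pathway steps gave log2 fold changes of -0.13 for ACAT2, the thiolase, -0.18 for PMVK and -0.21 for MVD, the kinase and decarboxylase after MVK, and -0.17 for IDI1, the isomerase. FDFT1 was at -0.24, SQLE, the squalene epoxidase, at -0.22, LSS, which closes squalene epoxide into lanosterol, at -0.18, TM7SF2, a sterol reductase, at -0.25 and MSMO1, the methylsterol monooxygenase, at -0.21. Near 0 stood FDPS, the farnesyl diphosphate synthase, at 0.002 and HSD17B7 at 0.01. NSDHL, a sterol dehydrogenase, was at -0.09, EBP, a sterol isomerase, at -0.08 and SC5D, a sterol desaturase, at -0.05. Their standard errors lay between 0.07 and 0.09.

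Among the regulators, INSIG1, itself an SREBP target, had 150, 154 and 187 CPM in the siRNA2 libraries, against 174, 190 and 226 CPM in the NTC libraries. It was lower in every same-numbered pair although the ranges overlapped. Its log2 fold change of -0.27 ± 0.07 had the smallest adjusted p of the members (edgeR adjusted p = 0.124). SREBF1 was at -0.20, SREBF2 at -0.08, SCAP at -0.05 and STARD4, a sterol carrier, at -0.05.

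Of the 7 fatty acid enzymes 6 were negative, with a median log2 fold change of -0.08. FADS2, a polyunsaturated fatty acid desaturase, had 225, 234 and 216 CPM in the siRNA2 libraries, against 241, 256 and 300 CPM in the NTC libraries, with no overlap, at a log2 fold change of -0.24 ± 0.07 (edgeR adjusted p = 0.206). FASN, the fatty acid synthase, was at -0.20, ACLY at -0.11, FADS1 and SCD at -0.08, ACACA, the acetyl-CoA carboxylase, at -0.02, and ELOVL6, an elongase, at 0.08.

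Single libraries weighed on this comparison. The median of all members was -0.08 without siRNA2 replicate 3, with 23 of 29 negative, and -0.10 without NTC replicate 3, with 4 members in place of 15 at an unadjusted p under 0.05. The fatty acid median ran from -0.14 without NTC replicate 2, with -0.13 without siRNA2 replicate 2, to -0.05 without siRNA2 replicate 3 and -0.04 without NTC replicate 3. For the sterol enzymes, without NTC replicate 3 the median was -0.11 and 3 sterol enzymes stayed at an unadjusted p under 0.05, in place of 11. Without siRNA2 replicate 3 it was -0.13, with 7. Without siRNA2 replicate 1 it was -0.15, with 8. In each of these fits at least 15 of 17 sterol enzymes were negative.

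The libraries labelled siRNA1 were set against the same NTC libraries, so the fold changes of this comparison and the last one share their denominator. Here 2 members passed, both lower: SREBF1 and SQLE. That is 6.90% of the 29 members, against 5.93% of all genes called lower, and no member was called higher, against 5.48% of all genes. The share of members called lower was thus near that of all genes. In all 3 same-numbered pairs 4 members (13.8%) were higher and 8 (27.6%) lower. Of the 18554 genes 4294 were higher and 4225 lower in all 3 pairs. The median log2 fold change of the members was -0.04, against 0.005 over all genes. Without NTC replicate 3 it was -0.001, with 15 members below 0 and 14 above, and without NTC replicate 1 it was -0.06.

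SREBF1 had 49.2, 39.3 and 54.8 CPM in the siRNA1 libraries, against 57.2, 54.8 and 66.0 CPM in the NTC libraries. It was lower in each same-numbered pair, and the groups met only at 54.8 CPM. In log2 terms the fold change was -0.32 ± 0.08 (edgeR adjusted p = 0.00853). The call ended without siRNA1 replicate 1, siRNA1 replicate 2 or NTC replicate 3, with an edgeR adjusted p of up to 0.0986. SREBF1 (ENSG00000072310.16) lies at GRCh38 chr17:17810399-17837002 on the minus strand, and its exons share 6.90% of their length with RAI1 on the other strand.

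SQLE had 154, 172 and 152 CPM in the siRNA1 libraries, against 178, 176 and 203 CPM in the NTC libraries. Each siRNA1 value was below each NTC value, at a log2 fold change of -0.22 ± 0.07 (edgeR adjusted p = 0.0462). The call was lost without siRNA1 replicate 1 or 3 or NTC replicate 1 or 3, with an edgeR adjusted p of up to 0.37, and with scaling by library size alone.

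The sterol enzymes did not move together between these labels. Their median log2 fold change was -0.002 over a range of -0.22 to 0.17, with 9 of 17 negative. With 1 library left out the median ran from -0.03 without siRNA1 replicate 1 to 0.06 without NTC replicate 3. MSMO1 had 54.4, 56.9 and 58.8 CPM in the siRNA1 libraries, against 56.5, 68.1 and 74.0 CPM in the NTC libraries, at a log2 fold change of -0.21 ± 0.08 (edgeR adjusted p = 0.0802). At the other end LSS had 152, 164 and 183 CPM in the siRNA1 libraries, against 123, 150 and 175 CPM in the NTC libraries. It was higher in each same-numbered pair, at 0.17 ± 0.08 (edgeR adjusted p = 0.171). The 7 fatty acid enzymes were all negative, with a median of -0.05, but without NTC replicate 3 only 4 of 7 were, with a median of -0.008. Without NTC replicate 2 the median was -0.10, and without siRNA1 replicate 1 or NTC replicate 1 it was -0.07. FASN had 221, 285 and 265 CPM in the siRNA1 libraries, against 258, 334 and 312 CPM in the NTC libraries. It was lower in each pair, at -0.23 ± 0.08 (edgeR adjusted p = 0.0594). It passed under 8 of 19 alternatives: DESeq2, RLE scaling, no filter beyond 1 count, the 2 labels alone, and without siRNA1 replicate 3 or any 1 siRNA2 library. Over the fits with 1 library left out its edgeR adjusted p ran from 0.00352 to 0.357.

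The 2 transcripts that encode SREBPs had opposite signs here. SREBF2 had 339, 331 and 354 CPM in the siRNA1 libraries, against 297, 290 and 333 CPM in the NTC libraries, and was higher in each pair, at a log2 fold change of 0.16 ± 0.07 that did not pass (edgeR adjusted p = 0.15). INSIG1 was at -0.19 (edgeR adjusted p = 0.0814). The number of members called was 1 without siRNA1 replicate 2, NTC replicate 1 or NTC replicate 3, and 7 without siRNA2 replicate 3.

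**Figure D3:**
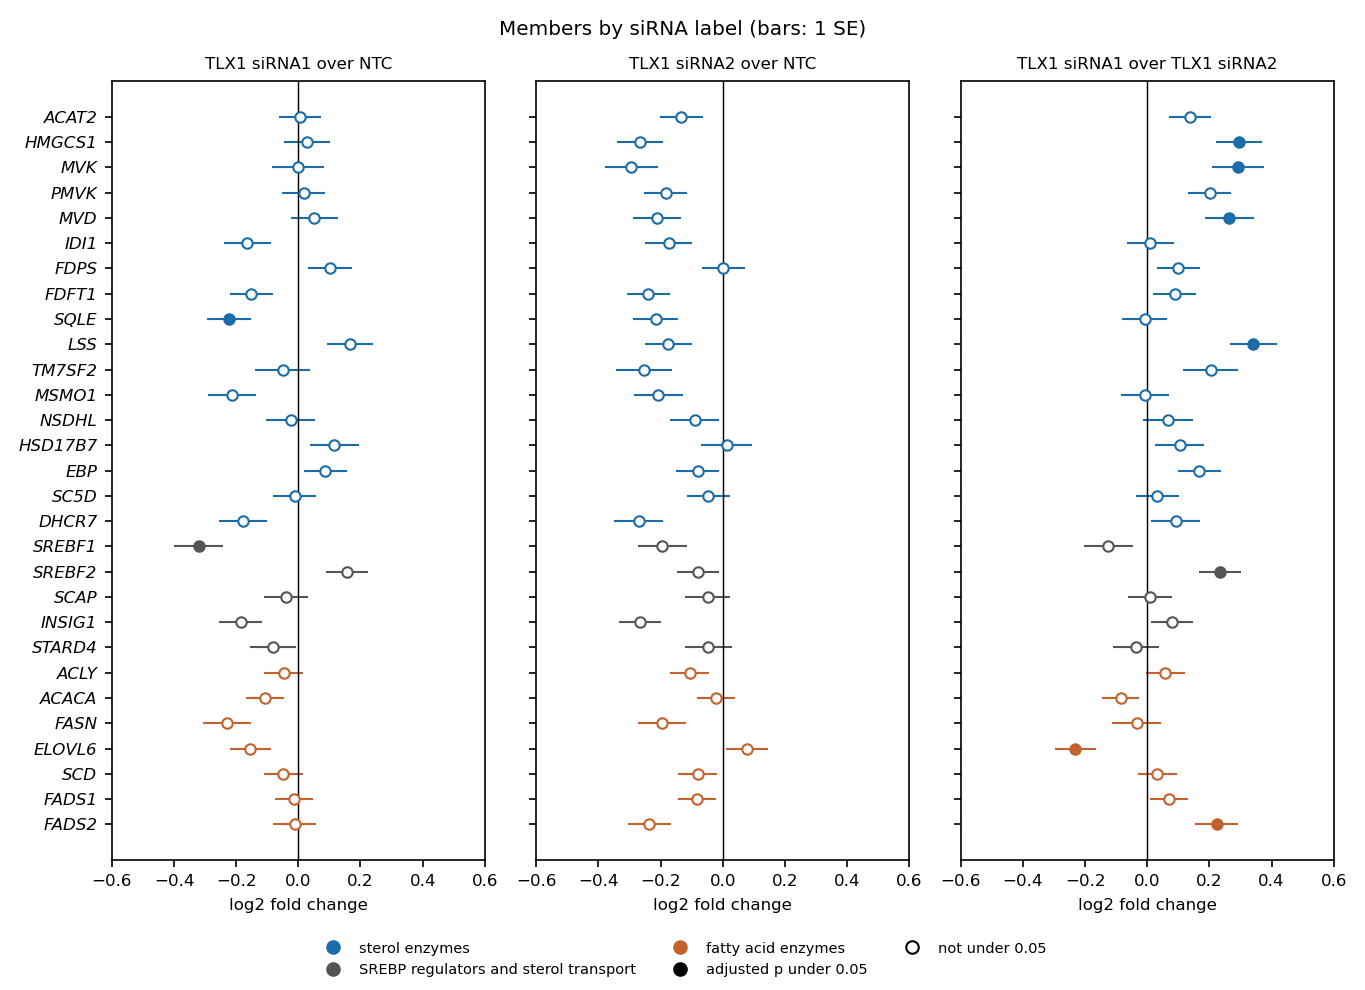
Log2 fold change of each member with 1 SE for TLX1 siRNA1 over NTC, TLX1 siRNA2 over NTC and TLX1 siRNA1 over TLX1 siRNA2, coloured by branch and filled where the adjusted p was under 0.05. In the middle panel 26 of 29 points lie left of 0 and none is filled, and in the right panel 7 are filled.

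Setting the 2 TLX1 siRNA labels against each other tests their difference directly. Here 7 of the 29 members passed: 6 higher under siRNA1 (20.7% of members, against 5.29% of all genes) and 1 lower (3.45%, against 5.27%). The 6 were HMGCS1, MVK, MVD, LSS, SREBF2 and FADS2, and the 1 was ELOVL6. Higher in all 3 same-numbered pairs were 12 members (41.4%), 9 of them among the 17 sterol enzymes, against 23.1% of all genes. The median log2 fold change was 0.10 over the sterol enzymes, 0.01 over the regulators and carriers, 0.03 over the fatty acid enzymes and 0.01 over all genes. With 1 library left out these medians ran from 0.08 (without siRNA2 replicate 1) to 0.19 (without siRNA2 replicate 2) for the sterol enzymes, of which at least 14 of 17 stayed positive. They ran from -0.008 (without siRNA1 replicate 1) to 0.06 (without siRNA2 replicate 3) for the regulators and carriers, and from 0.001 (without siRNA2 replicate 3) to 0.08 (without siRNA2 replicate 2) for the fatty acid enzymes.

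LSS had 152, 164 and 183 CPM in the siRNA1 libraries, against 121, 145 and 127 CPM in the siRNA2 libraries. The lowest siRNA1 value was above the highest siRNA2 value. Its log2 fold change of 0.34 ± 0.08, or 1.27-fold, had the smallest adjusted p of the members (edgeR adjusted p = 0.00367). When each of the 9 libraries was left out in turn, the call ended only without siRNA1 replicate 1 (edgeR adjusted p = 0.0593). The LSS gene (ENSG00000160285.14) lies at GRCh38 chr21:46188141-46228824 on the minus strand.

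HMGCS1 had 233, 236 and 207 CPM in the siRNA1 libraries, against 156, 202 and 195 CPM in the siRNA2 libraries. The groups did not overlap, and siRNA2 replicate 1 was the lowest of all 9 libraries. HMGCS1 differed by a log2 fold change of 0.30 ± 0.08 (edgeR adjusted p = 0.0122). The call was lost without siRNA1 replicate 1 or siRNA2 replicate 1 (edgeR adjusted p of up to 0.279). HMGCS1 (ENSG00000112972.14) lies at GRCh38 chr5:43289395-43313512 on the minus strand.

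MVK had 18.9, 17.7 and 17.3 CPM in the siRNA1 libraries, against 15.1, 15.3 and 13.5 CPM in the siRNA2 libraries. These values did not overlap, and MVK differed by a log2 fold change of 0.29 ± 0.09 (edgeR adjusted p = 0.0292), and the call ended without siRNA1 replicate 1 or 2 or siRNA2 replicate 1 or 3 (up to 0.195). MVD had 54.8, 51.1 and 53.9 CPM in the siRNA1 libraries, against 46.1, 47.6 and 39.3 CPM in the siRNA2 libraries. Again the groups stood apart, at a log2 fold change of 0.26 ± 0.08 (edgeR adjusted p = 0.0307), and the call ended without siRNA1 replicate 1 or 3 or siRNA2 replicate 3 (up to 0.22).

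MVK, PMVK and MVD act in a row on mevalonate. PMVK had 38.5, 37.2 and 41.2 CPM in the siRNA1 libraries, against 33.5, 34.7 and 33.4 CPM in the siRNA2 libraries, with no overlap, and a log2 fold change of 0.20 ± 0.07 (edgeR adjusted p = 0.0661). It passed with upper quartile scaling and with a filter of 1 CPM in 3 libraries.

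SREBF2 had 339, 331 and 354 CPM in the siRNA1 libraries, against 290, 305 and 273 CPM in the siRNA2 libraries. The groups did not overlap. Its log2 fold change was 0.24 ± 0.07 (edgeR adjusted p = 0.0259). The call ended without siRNA1 replicate 1, 2 or 3 and without siRNA2 replicate 1 or 3 (up to 0.147). SREBF2 (ENSG00000198911.11) lies at GRCh38 chr22:41833079-41907308 on the plus strand, and its window is the one with the exact SREBP site.

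FADS2 had 259, 257 and 274 CPM in the siRNA1 libraries, against 225, 234 and 216 CPM in the siRNA2 libraries, again apart, at a log2 fold change of 0.22 ± 0.07 (edgeR adjusted p = 0.0402), and the call ended without siRNA1 replicate 1, 2 or 3 or siRNA2 replicate 3 (up to 0.239). FADS1, the neighbouring desaturase gene with which it shares 490 exonic bases, was at 0.07 (edgeR adjusted p = 0.552).

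ELOVL6 went the other way, with 47.5, 49.5 and 37.1 CPM in the siRNA1 libraries, against 52.4, 57.3 and 47.1 CPM in the siRNA2 libraries. It was lower in each pair although the ranges overlapped, at a log2 fold change of -0.23 ± 0.07 (edgeR adjusted p = 0.0293), and the call ended without siRNA1 replicate 1, 2 or 3 or siRNA2 replicate 2 or 3 (up to 0.232). The remaining fatty acid enzymes lay between -0.09 for ACACA and 0.07 for FADS1.

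Of the sterol enzymes that did not pass, TM7SF2 was at 0.20, EBP at 0.17, ACAT2 at 0.14, HSD17B7, FDPS, DHCR7 and FDFT1 between 0.09 and 0.10, NSDHL at 0.07 and SC5D at 0.03. IDI1, SQLE and MSMO1 were at 0.01, -0.008 and -0.007. The number of members called was 0 without siRNA1 replicate 1, with 7 at an unadjusted p under 0.05. It was 3 without siRNA1 replicate 2, siRNA1 replicate 3 or siRNA2 replicate 3, and 4 without siRNA2 replicate 1.

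**Figure D4:**
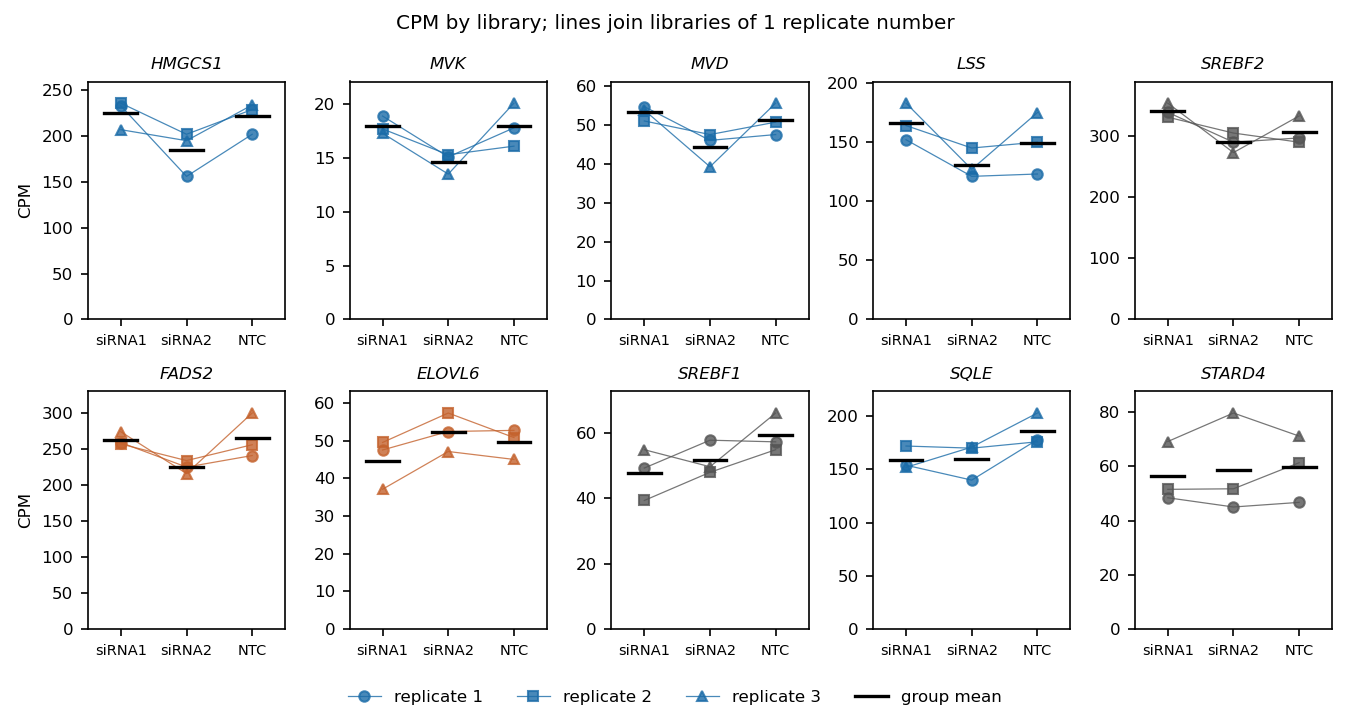
CPM of the 9 members called between siRNA labels and of STARD4, by label (axis from 0), with 1 symbol per replicate number, thin lines joining libraries of the same number and black bars at group means. HMGCS1, MVK, MVD, LSS, SREBF2 and FADS2 are higher in each siRNA1 library than in each siRNA2 library, and STARD4 separates by replicate number.

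All these calls rest on the replicate number as a block. Without it no member was called in any of the 3 comparisons, while 1.28% of all genes were called for siRNA1 against NTC, 0.0% for siRNA2 against NTC and 1.08% for siRNA1 against siRNA2. At an unadjusted p under 0.05 stood then 2 of 29 members for siRNA1 against NTC, 7 for siRNA2 against NTC and 7 for siRNA1 against siRNA2.

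More members passed between replicate numbers than between a TLX1 siRNA label and NTC, and so did more of all genes. Of all 18554 genes, 3958 were called for replicate 1 against the others and 3825 for replicate 2 against replicate 3. Against NTC 2117 were called for siRNA1 and 28 for siRNA2. Between the 2 TLX1 siRNA labels 7 members passed. These differences in counts were not themselves tested. In replicate 1 against the mean of replicates 2 and 3, at equal siRNA label, 8 of the 29 members passed. The 2 that were higher (6.90%, against 10.9% of all genes) were FDPS and EBP. The 6 that were lower (20.7%, against 10.4% of all genes) were LSS, MSMO1, HSD17B7, STARD4, ACACA and FASN. In replicate 2 against replicate 3, 7 members passed: ACLY, ACACA, FASN and ELOVL6 higher (13.8%, against 9.91% of all genes), and SREBF1, INSIG1 and STARD4 lower (10.3%, against 10.7%).

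STARD4, whose protein carries cholesterol between membranes, separated most clearly. The replicate 1 libraries had 48.4 CPM under siRNA1, 45.0 under siRNA2 and 46.7 under NTC, the replicate 2 libraries 51.5, 51.7 and 61.3 CPM, and the replicate 3 libraries 69.1, 79.6 and 71.1 CPM. The 3 replicate numbers did not overlap. The log2 fold change was -0.44 ± 0.07 for replicate 1 against replicates 2 and 3 (edgeR adjusted p = 5.43e-05) and -0.42 ± 0.08 for replicate 2 against replicate 3 (edgeR adjusted p = 0.000491). Both calls held when any 1 of the 9 libraries was left out. By siRNA label STARD4 did not pass, at -0.08 for siRNA1 against NTC, -0.05 for siRNA2 against NTC and -0.04 for siRNA1 against siRNA2.

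Fatty acid enzymes were higher in replicate 2 than in replicate 3: 6 of 7 were positive, with a median log2 fold change of 0.18, against -0.01 over all genes. Without siRNA2 replicate 3 the median was 0.09, still with 6 of 7 positive. ELOVL6 had 49.5, 57.3 and 50.8 CPM in the replicate 2 libraries, against 37.1, 47.1 and 45.0 CPM in the replicate 3 libraries. The groups stood apart, at 0.29 ± 0.07 (edgeR adjusted p = 0.00392). ACLY had 383, 385 and 383 CPM in the replicate 2 libraries, against 332, 302 and 360 CPM in the replicate 3 libraries, also apart, at 0.21 ± 0.06 (edgeR adjusted p = 0.019). FASN was at 0.23 (edgeR adjusted p = 0.0399) and ACACA at 0.18 (edgeR adjusted p = 0.0399).

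These 4 calls each rested on single libraries. The one on ELOVL6 was lost without siRNA1 replicate 2 (edgeR adjusted p = 0.05), and that on ACLY without siRNA1 or siRNA2 replicate 2 or 3 (up to 0.158). The FASN call was lost without siRNA1 replicate 1 or 2 or siRNA2 replicate 2 or 3 (up to 0.259), and the ACACA call in all fits but that without NTC replicate 2 (up to 0.235). In replicate 1 against the others 6 of the 7 fatty acid enzymes were negative, with a median of -0.12, against -0.006 over all genes. With any 1 library left out 6 stayed negative, with medians of -0.14 to -0.10. FASN was at -0.23 (edgeR adjusted p = 0.0191) and ACACA at -0.15 (edgeR adjusted p = 0.0482). The 1 positive enzyme was ELOVL6, at 0.10 (edgeR adjusted p = 0.237).

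A pair of regulators, SREBF1 and INSIG1, were lower in replicate 2 than in replicate 3. SREBF1 had 39.3, 47.9 and 54.8 CPM in the replicate 2 libraries, against 54.8, 49.6 and 66.0 CPM in the replicate 3 libraries. It was lower under each label, at -0.27 ± 0.08 (edgeR adjusted p = 0.0179). INSIG1 was at -0.22 ± 0.07 (edgeR adjusted p = 0.022). The SREBF1 call ended without siRNA1 replicate 2 or 3 or NTC replicate 3 (up to 0.189), and the INSIG1 call without siRNA1 replicate 2, siRNA2 replicate 2 or 3 or NTC replicate 3 (up to 0.112).

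Among the sterol enzymes LSS had 152, 121 and 123 CPM in the replicate 1 libraries under siRNA1, siRNA2 and NTC. It had 164, 145 and 150 CPM in replicate 2 and 183, 127 and 175 CPM in replicate 3. Replicate 1 held the lowest value under each label, at a log2 fold change of -0.25 ± 0.07 against the other numbers (edgeR adjusted p = 0.00747). MSMO1 was at -0.27 ± 0.07 (edgeR adjusted p = 0.00609) and HSD17B7 at -0.23 ± 0.07 (edgeR adjusted p = 0.0258). FDPS was higher in replicate 1, at 0.20 ± 0.06 (edgeR adjusted p = 0.024), and so was EBP, at 0.18 ± 0.06 (edgeR adjusted p = 0.0321). No sterol enzyme passed between replicates 2 and 3, by edgeR with the block, where 1 of 17 was at an unadjusted p under 0.05.

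Each replicate 1 library weighed on most of these calls, NTC replicate 1 the most. Without NTC replicate 1, 1 member was called in replicate 1 against the others, STARD4. The LSS call was lost without that library, and the MSMO1 call also without siRNA2 replicate 1. HSD17B7 lost its call without siRNA1 replicate 1, siRNA2 replicate 1, siRNA2 replicate 2 or NTC replicate 1, and FDPS without any replicate 1 library or NTC replicate 2. EBP lost it without any siRNA1 library, siRNA2 replicate 1 or NTC replicate 1 or 2. FASN lost it without siRNA1 replicate 1 or 3 or NTC replicate 1, and ACACA in all fits but those without siRNA2 replicate 3 or NTC replicate 2.

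The number called in that comparison was 4 without siRNA1 replicate 1 or without siRNA2 replicate 1. In the 6 TLX1 siRNA libraries alone it was 2. In replicate 2 against replicate 3 the number was 1 without siRNA1 replicate 2, 3 without siRNA2 replicate 2 or siRNA2 replicate 3, and 4 without NTC replicate 3.

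**Figure D5:**
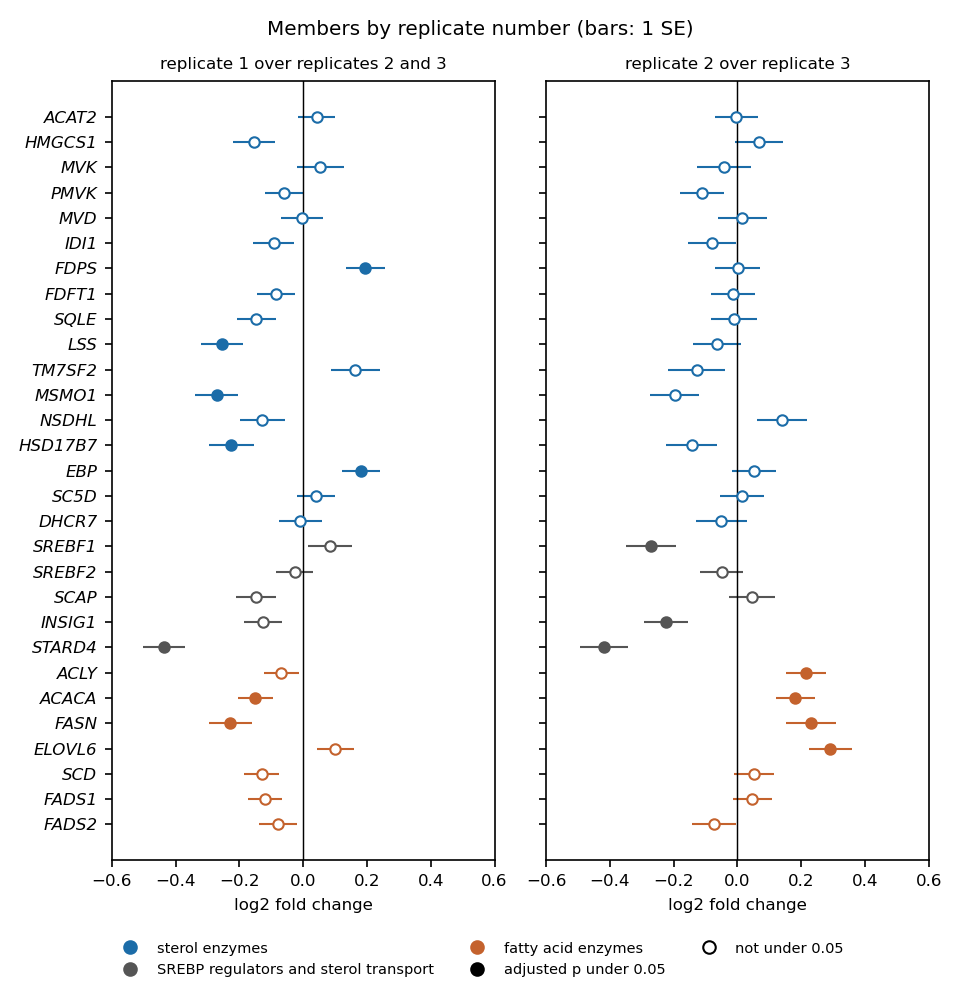
Log2 fold change of each member with 1 SE for replicate 1 over replicates 2 and 3 and for replicate 2 over replicate 3, at equal siRNA label, coloured by branch and filled where the adjusted p was under 0.05. STARD4 lies near -0.4 in both panels, and 4 of the 7 fatty acid enzymes are filled to the right of 0 in the second panel.

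The rest of the pathway was read from 6 further lists. In siRNA1 against NTC, with 5.48% of all genes higher and 5.93% lower, 0 of 15 genes of SREBP cleavage and turnover rose and 2 fell. SEC24A, a COPII coat protein of the vesicles that leave the endoplasmic reticulum, had 23.5, 27.3 and 26.6 CPM in the siRNA1 libraries, against 34.8, 40.4 and 38.1 CPM in the NTC libraries. The groups stood far apart, at a log2 fold change of -0.55 ± 0.06 (edgeR adjusted p = 2.5e-06). It was also lower than in the siRNA2 libraries (36.8, 43.7 and 41.5 CPM), at -0.66 ± 0.06 (edgeR adjusted p = 2.4e-07). RNF145, a ubiquitin ligase of the endoplasmic reticulum, fell by 0.23 ± 0.07 (edgeR adjusted p = 0.0397).

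Of 16 genes of the isoprenoid branch, which uses farnesyl diphosphate for purposes other than sterols, 1 rose and 3 fell in siRNA1 against NTC. ICMT, which methylates prenylated proteins, had 82.6, 76.4 and 76.8 CPM in the siRNA1 libraries, against 134, 117 and 122 CPM in the NTC libraries. No siRNA1 value came near an NTC value, at -0.66 ± 0.07 (edgeR adjusted p = 2.14e-07). Against the siRNA2 libraries (126, 132 and 119 CPM) it was at -0.68 ± 0.07 (edgeR adjusted p = 1.9e-07). PDSS1, a subunit of the enzyme that makes the ubiquinone tail, fell by 0.26 ± 0.07 (edgeR adjusted p = 0.0238). COQ2, which attaches that tail, rose by 0.47 ± 0.09 (edgeR adjusted p = 0.000769).

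Among 9 counted genes of the LXR and sterol efflux list 2 rose and none fell by edgeR, with 3 of the 9 at an unadjusted p under 0.05. RXRA, the partner receptor of the sterol sensor LXR, had 23.8, 34.1 and 41.1 CPM in the siRNA1 libraries, against 9.50, 10.1 and 16.2 CPM in the NTC libraries. The groups did not overlap, at 1.47 ± 0.09, or 2.77-fold (edgeR adjusted p = 2.38e-10). LPCAT3, which remodels membrane phospholipids, rose by 0.32 ± 0.09 (edgeR adjusted p = 0.0228). The SEC24A, ICMT and RXRA calls held without any 1 library and without the block.

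Of 16 genes of sterol uptake, storage and release, 1 fell, OSBPL5, an oxysterol-binding protein relative, at -0.28 ± 0.08 (edgeR adjusted p = 0.019). Of 28 counted further fatty acid synthesis genes 3 fell, among them FABP5, a fatty acid carrier, at -0.39 ± 0.07 (edgeR adjusted p = 0.000769) and MCAT, of mitochondrial fatty acid synthesis, at -0.26 ± 0.08 (edgeR adjusted p = 0.0267). Of 24 counted fatty acid oxidation genes 1 rose, PPARA, a fatty acid-sensing receptor, at 0.31 ± 0.08 (edgeR adjusted p = 0.0111). The calls on FABP5 and COQ2 held without any 1 library but ended without the block. Those on RNF145, PDSS1, OSBPL5, LPCAT3, MCAT and PPARA also ended without the block. The other calls ended when certain libraries were left out, with an edgeR adjusted p of up to 0.267. For RNF145 these were siRNA1 and NTC replicates 2 and 3, for PDSS1 siRNA1 and NTC replicates 1 and 3, and for OSBPL5 siRNA1 replicates 1 and 2 and NTC replicate 3. For LPCAT3 they were all siRNA1 libraries and NTC replicates 2 and 3, for MCAT all siRNA1 libraries and NTC replicates 1 and 3, and for PPARA siRNA1 and NTC replicate 2. In siRNA2 against NTC no gene of the 6 lists passed by edgeR.

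An earlier search of these libraries had brought out the word GCAGTAC in 3′ UTRs, so its counts are descriptions only. It was found in 625 of 12247 tested genes searched (5.10%), in the reference transcripts. Among the members only MSMO1 held it. In the further lists 7 genes did: SEC24A, ICMT, C12orf49, VLDLR, GRAMD1B, NCOA5 and PGGT1B. Of all these only SEC24A and ICMT were called in siRNA1 against NTC, both lower. Over all genes 5.93% were called lower and 5.48% higher. Whether holding the word goes with a call was not tested. The windows around it are shown for SEC24A, ICMT and MSMO1, with the word in capitals.
SEC24A: agtcactcaaGCAGTACcatttatttt
ICMT: tttataagtaGCAGTACacattcaaag
MSMO1: tgattgcagtGCAGTACtggcatttct

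By replicate number, 9 of 24 fatty acid oxidation genes rose in replicate 1 against replicates 2 and 3 and none fell, against 10.9% and 10.4% of all genes, with 14 of the 24 at an unadjusted p under 0.05. ECI1, an enoyl-CoA isomerase, had 11.0, 9.43 and 9.74 CPM in the replicate 1 libraries, against 7.50, 7.53 and 7.33 CPM in replicate 2 and 7.04, 6.03 and 7.09 CPM in replicate 3. Replicate 1 stood above all others, at 0.50 ± 0.08 (edgeR adjusted p = 4.81e-05). ETFDH, which passes electrons from fatty acid oxidation to ubiquinone, rose by 0.33 ± 0.06 (edgeR adjusted p = 0.000181). In replicate 2 against replicate 3, 2 of the 24 were higher and 5 lower, against 9.91% and 10.7% of all genes.

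In replicate 1, where 10.9% of all genes were higher and 10.4% lower, 3 of 15 genes of SREBP cleavage and turnover rose. Among them was UFD1, of protein removal from the endoplasmic reticulum, at 0.23 ± 0.05 (edgeR adjusted p = 0.00381). In the same list 4 fell, among them RNF145 at -0.29 ± 0.06 (edgeR adjusted p = 0.00196) and SEC24A at -0.19 ± 0.06 (edgeR adjusted p = 0.0161). GRAMD1C, a sterol transfer protein, rose by 0.66 ± 0.08 (edgeR adjusted p = 2.8e-06) and LRP8, a lipoprotein receptor, by 0.16 ± 0.05 (edgeR adjusted p = 0.0368), the 2 of 16 uptake and storage genes that passed. RXRA fell by 0.47 ± 0.08 (edgeR adjusted p = 0.000273) and NCOA5, a nuclear receptor coactivator, by 0.23 ± 0.06 (edgeR adjusted p = 0.00471).

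Of the isoprenoid genes only SRD5A3, a polyprenol reductase, passed in replicate 1, at 0.30 ± 0.06 (edgeR adjusted p = 0.000624). In replicate 2 against replicate 3, 4 of 16 were higher and none lower, against 9.91% and 10.7% of all genes. Among 28 further fatty acid synthesis genes 4 rose in replicate 1 and 1 fell, against 10.9% and 10.4% of all genes. The 1 that fell was MID1IP1, a regulator of acetyl-CoA carboxylase, at -0.27 ± 0.06 (edgeR adjusted p = 0.0036). CYB5B, an outer mitochondrial cytochrome, rose by 0.28 ± 0.05 (edgeR adjusted p = 0.000599). Another of the 4 was ELOVL4, an elongase of very long chains, at 0.266, 0.296 and 0.331 CPM in replicate 1 and at most 0.083 CPM elsewhere. It passed the filter on low counts only through the replicate 1 libraries, so it had to differ and its call supports nothing.

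Without NTC replicate 1 the replicate calls on UFD1, RNF145, SEC24A, LRP8 and MID1IP1 ended, with an edgeR adjusted p of up to 0.268. The SEC24A call also ended without siRNA1 replicate 1 or siRNA2 replicate 1, and the NCOA5 call without siRNA1 replicate 1 alone. LRP8 lost its call without any siRNA1 library or siRNA2 replicate 1 or 2. The calls on ECI1, ETFDH, GRAMD1C, RXRA, SRD5A3 and CYB5B held when any 1 library was left out.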

How the data were processed

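PolyA+ RNA-seq of 9 ALL-SIL libraries was analysed from the deposited counts: whole reads per gene, 1 table per library, not normalized, per the values themselves. Reads were placed on GRCh38, per the submitters' processing notes. The aligner, counter and annotation were not given in the sources used here. No strand is marked by the kit, per the labels' protocols, so the unstranded column was used. Each table's 4 summary lines were left out, and 75.5% to 77.6% of reads fell in genes. GENCODE 29 matched 57488 of 58096 identifiers, and the rest held 0.0317% of counts.

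The filter was filterByExpr by siRNA label (minimum count 10, minimum total 15). Scaling used TMM, whose factors lay between 0.975 and 1.036. All 9 libraries entered a single quasi-likelihood model of edgeR 4.0.16 (R 4.3.3) with terms for siRNA label and replicate number. Adjusted p-values are Benjamini-Hochberg over all 18554 genes tested, with a threshold of 0.05. CPM values are scaled by the TMM factors. Standard errors (SE) were obtained by dividing the size of a log2 fold change by the root of its F statistic. The script was tested on simulated data. Intervals from counts would cover counting error only.

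The replicate number entered as a block because the rule that defines these genes names it. The numbers pair the libraries, judged by deviations from the label means of log2 CPM (prior count 2) over 11305 genes. These correlated at 0.567 to 0.817 for 9 same-numbered pairs and at -0.601 to 0.01 for 18 others. Such deviations cancel out within a label, so positive values for same-numbered pairs bring negative values for the others. The second range therefore adds no separate evidence. The labels do not say that libraries came from separate cultures, so p-values measure the spread between these libraries, which may be technical. No 2 libraries of a label were repeats: their chi-square over genes, per degree of freedom, lay between 35.96 and 60.67.

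The members, lists and tests were chosen with earlier results of these data known. All 30 members were named. From each further list up to 2 genes each way with the smallest adjusted p among those called in siRNA1 against NTC, and likewise in replicate 1 against the others, were named, except an item that is not reported here. Alternatives were other scaling (RLE, upper quartile, library size alone), other filters, DESeq2 1.42.0, limma-voom 3.58.1, no block, fewer groups or replicates, each library left out, another gene length and a looser motif.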

Additional observations from a re-analysis of the deposited data

How the results depend on the processing

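The numbers of members called were 2 for siRNA1 against NTC, 0 for siRNA2 against NTC, 7 for siRNA1 against siRNA2, 8 for replicate 1 against replicates 2 and 3 and 7 for replicate 2 against replicate 3. Without the replicate block they were 0, 0 and 0 in the 3 siRNA comparisons. In siRNA1 against NTC the number was 1 with scaling by library size alone, 1 in replicates 2 and 3 only, and 4 in a fit of the 2 labels alone. In siRNA2 against NTC it was 3 with no filter beyond 1 count and 1 with DESeq2. In siRNA1 against siRNA2 it was 1 in replicates 2 and 3 only. In replicate 1 against the others it was 2 in the 6 TLX1 siRNA libraries alone. With 1 library left out the number ran from 1 to 7 for siRNA1 against NTC, from 0 to 0 for siRNA2 against NTC, from 0 to 7 for siRNA1 against siRNA2, from 1 to 9 for replicate 1 against the others and from 1 to 8 for replicate 2 against replicate 3. Under each other alternative the number of members stayed within 1.5 times. Over all genes 2117 were called for siRNA1 against NTC (238 without the block, 1139 in replicates 2 and 3 only), 28 for siRNA2 against NTC (0 without the block, 158 with no filter beyond 1 count, 105 with DESeq2, 105 in a fit of the 2 labels alone, 93 in replicates 2 and 3 only) and 1958 for siRNA1 against siRNA2 (201 without the block, 1015 in replicates 2 and 3 only). With 1 library left out these counts fell as low as 1163 for siRNA1 against NTC and 980 for siRNA1 against siRNA2, both without siRNA1 replicate 1, and ran from 4 without siRNA2 replicate 3 to 108 without NTC replicate 1 for siRNA2 against NTC. The 3958 genes of replicate 1 against the others became 2023 without siRNA1 replicate 1, and the 3825 of replicate 2 against replicate 3 became 1952 without siRNA1 replicate 2. Leaving out libraries or replicates lowers the number of samples; apart from that the cause was not tested. Allowing 1 mismatch took the SREBP site to 15 of 35 member windows, in place of 1, and to 24.5% of all windows, in place of 1.13%. Over the members and the named genes 2737 alternative fold changes kept direction and call, 173 lost the call, 38 gained it, and 135 of uncalled genes changed sign; no called fold change did. The scaling alternatives moved the median of all genes by no more than the -0.0495 (log2) that library size alone gave for replicate 2 against replicate 3. The members' fold changes were at most 1.36, with standard errors of 0.053 to 0.09 on the log2 scale, so a member that missed the threshold is not shown to be equal between labels.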
